A study of Mus musculus with 6 samples.

Results

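The transcripts described here are those of the proteasome subunit genes of mouse embryonic stem cells, measured with and without a block of translation by cycloheximide. Members were chosen by gene symbol: the letters Psm, then a letter from a to g, then a number. That pattern matched 49 of the 17485 genes in the count files. Of these, 19 belong to the core particle, 17 to the regulatory cap, 7 to the assembly factors and 5 to other activators and an inhibitor. The remaining match, Psmc3ip, encodes a DNA-recombination partner protein and shares only the start of its name with a proteasome gene. The genes lie on 16 chromosomes, and 48 of the 49 passed the filter on low counts.

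The cells were E14, a pluripotent line of 129/Ola background, grown on gelatin in serum with leukaemia inhibitory factor. Treatment began 24 h after seeding. The groups were ethanol vehicle alone for 9 h (control), cycloheximide at 250 µg/mL in 0.007% ethanol for 3 h, and the same solution for 6 h, with 2 libraries each. The length of exposure and the drug cannot be told apart between control and treated cells. Nothing in the labels says that replicates were separate cultures, so p-values measure only the spread between these libraries.

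The proteasome is the protease that degrades most ubiquitin-tagged proteins of the cell. Its core particle is a barrel of stacked rings built from alpha subunits (Psma genes) on the outside and beta subunits (Psmb genes) inside, and 3 of the beta subunits carry the proteolytic sites. A cap of ATPases (Psmc genes) and non-ATPase subunits (Psmd genes) binds ubiquitin chains, removes them and threads the substrate into the barrel. Dedicated chaperones assist assembly without remaining in the finished particle. The transcription factor NRF1 (Nfe2l1) is known for raising transcription of proteasome genes together when protease activity is limiting.

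Most of these transcripts were lower after cycloheximide, relative to the bulk of genes in each library. At 6 h against control, 25 of the 48 tested genes fell and 2 rose (edgeR quasi-likelihood test, Benjamini-Hochberg adjusted p under 0.05 over 12755 genes). By the same rule 14.3% of all tested genes were lower and 14.8% higher. The 25 comprise 13 core particle genes, 8 cap genes, 3 activator genes and 1 assembly factor. The genes that rose were Psmf1, which encodes an inhibitor of the core particle, and Psmg3, which encodes an assembly chaperone. The median log2 fold change of the 48 was -0.43, against 0.04 over all genes tested, and 40 of the 48 values were below 0. Both 6 h libraries lay below both controls for 37 of the 48, a separation seen in 31.2% of all tested genes. In bulk RNA, fewer cells of a type and less RNA per cell cannot be told apart. When either 6 h library was left out, far fewer members were called lower and none higher. Calls over all tested genes also dropped, in both directions. Psma3, Psma5 and Psmd2 were lower in both of these fits. Relative to the mean control level, the core, cap and assembly medians were -0.50, -0.30 and -0.15 in 6 h replicate 1. In 6 h replicate 2 they were -0.51, -0.46 and -0.15.

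At 3 h against control, Psma3 and Psma5 fell and no member rose (same test), beside 1.3% of all tested genes lower and 3.6% higher. The median of the 48 was -0.28, against 0.02 over all genes, and 41 values were below 0. Both 3 h libraries lay below both controls for 36 members, against 24.8% of all genes. An unadjusted p under 0.05 was reached by 23 members. Leaving out single libraries moved the number of members called lower at 3 h. It was 4 without control replicate 1, 1 without either 6 h replicate, and 0 without control replicate 2 or either 3 h replicate. It was also 8 with no filter on low counts and 11 with DESeq2. Over all genes, 595 were called lower with no filter and 661 with DESeq2, against 166 in the edgeR fit reported here.

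Between 3 h and 6 h, no member was called by edgeR's quasi-likelihood test, and the median log2 fold change was -0.11. The same test called 1.18% of all genes lower and 0.455% higher at 6 h than at 3 h. An unadjusted p under 0.05 was reached by 6 members. DESeq2 and the fit with no low-count filter each called 1 member lower, Psmd2 in both cases, and limma-voom called none. The 3 h and 6 h comparisons with control share the control libraries, so their values stand side by side here without a correlation.

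**Figure D1:**
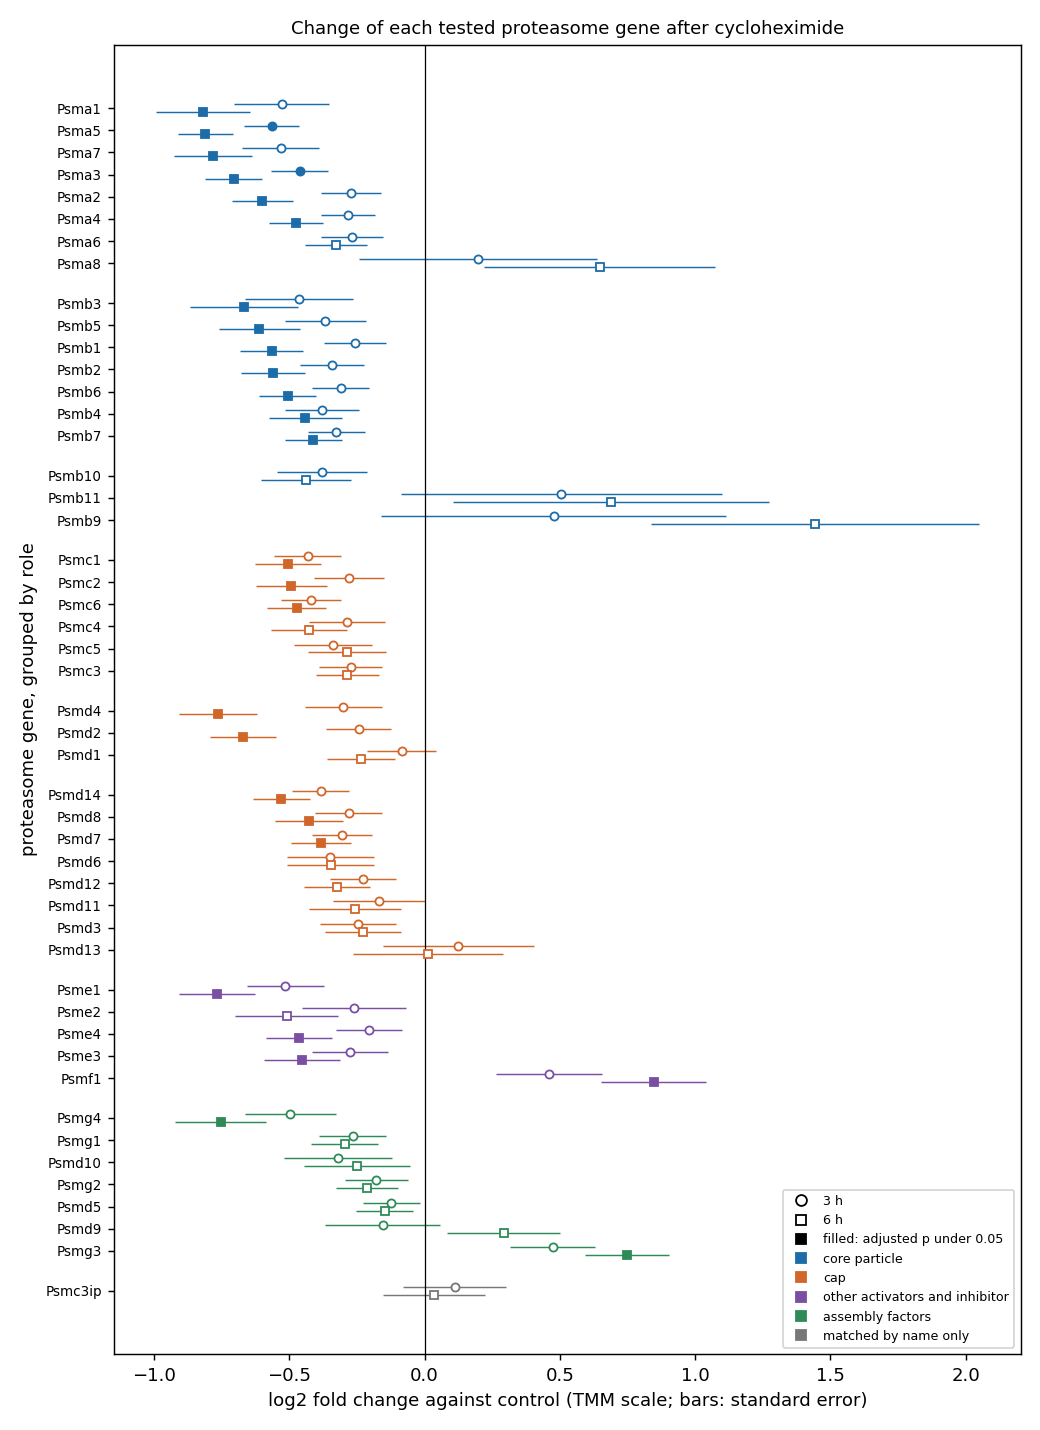
Log2 fold change against control (horizontal axis, bars are standard errors) of the 48 tested genes (vertical axis), grouped by role and coloured by division, at 3 h (circles) and 6 h (squares). Filled symbols passed an adjusted p under 0.05 (edgeR): 2 genes at 3 h and 27 at 6 h, of which Psmf1 and Psmg3 lie to the right of 0.

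How far the genes fell depends on how libraries are scaled. Values are given as TMM-scaled CPM: counts are divided by the library total times a trimmed-mean (TMM) factor, which sets each library relative to the bulk of its genes. Of all counts, the 49 genes took 0.687% and 0.709% in control libraries. They took 0.664% and 0.650% after 3 h and 0.654% and 0.642% after 6 h. These shares do not overlap between control and treated libraries, but they differ by less than the TMM values do. Mitochondrial genes took 24.7% and 24.9% of the control libraries, 19.6% and 18.9% of those at 3 h, and 17.4% and 16.6% of those at 6 h. With library totals alone as the scale, the median of all tested genes at 6 h moved to 0.40, and the core particle, cap and assembly medians moved to -0.18, -0.03 and 0.14. On that scale 3 members fell at 6 h (Psma3, Psma5, Psma7) and 3 rose (Psmd9, Psmf1, Psmg3). Over the 12755 tested genes, 494 were then called lower and 3679 higher, which is 11.8% and 88.2% of the calls. With TMM, 1821 were called lower and 1882 higher, which is 49.2% and 50.8% of the calls. The part of the mitochondrial change in these results was not tested. Dropping mitochondrial genes before scaling left 25 members lower and 2 higher at 6 h.

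**Figure D2:**
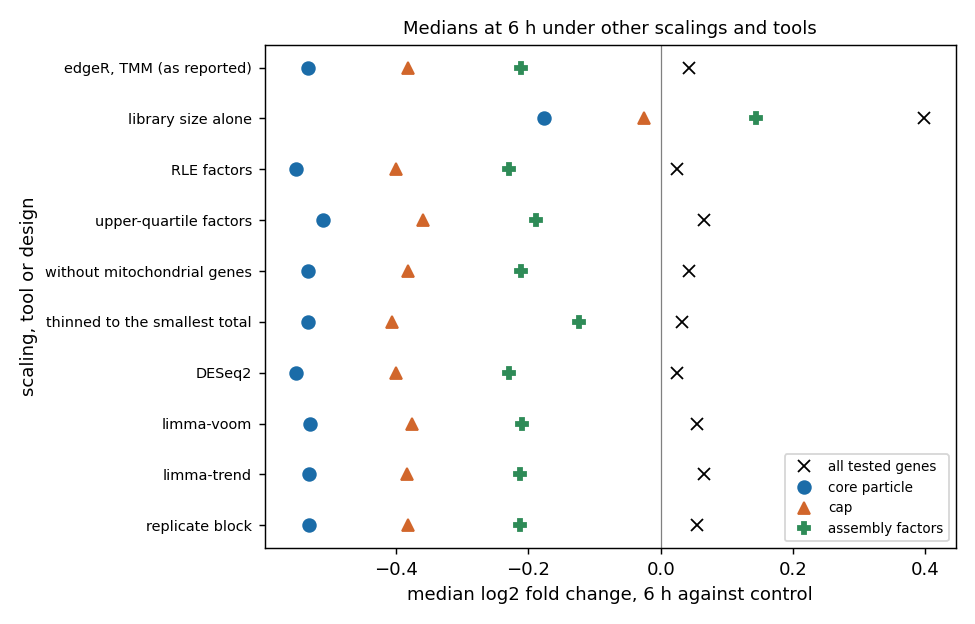
Median log2 fold change at 6 h against control (horizontal axis) of all tested genes and of the 3 divisions, under each scaling, tool or design (vertical axis). With library size alone every median shifts to the right, from -0.53 to -0.18 for the core particle and from 0.04 to 0.40 for all genes. In each setting plotted the core particle is lowest, then the cap, then the assembly factors.

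The libraries held between 9385447 and 27351079 counts, and the 6 h libraries were the deepest. All 10 embryonic stem cell markers were tested. Sox2 rose at 3 h (log2 fold change 0.68 ± 0.09 (SE), adjusted p = 0.00841), beside 3.6% of all tested genes. At 6 h 4 fell (Zfp42, Dppa5a, Utf1 and Fgf4), beside 14.3% of all tested genes, and all 10 values were below 0. The summed markers were 7245 and 7553 CPM in control, 8205 and 8471 CPM at 3 h, and 5993 and 5912 CPM at 6 h. Summed markers of fibroblasts (5 of 6 found) lay between 3.07 and 10.1 CPM and those of mesoderm (5 of 5) between 5.25 and 12.2 CPM. Summed primitive endoderm markers (8 of 8) were 91.7 and 86.4 CPM in control and 48.3 and 43.3 CPM at 6 h. That sum is mostly Sox7 and Lama1, which fell at 6 h. The values of the other 6 markers were above 0 at 6 h, but none passed the threshold. Of these, Pdgfra, Sox17 and Foxa2 had at most 7 counts in each control library. They passed the low-count filter through treated libraries, which favours values above 0. Summed neural markers (4 of 4), mostly Tubb3, were 338 and 327 CPM in control and 136 and 142 CPM at 6 h. No marker was at 0 in every library, but Dcn (fibroblasts) and Neurog2 (neural) had at most 3 counts in each. Their part in the proteasome results was not tested.

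Alpha subunits form the outer rings of the barrel and gate the entry of substrates. At 6 h, 6 of the 8 alpha genes fell, with a class median of -0.65. Psma5 had 371 and 408 CPM in control, 263 and 263 CPM at 3 h, and 222 and 223 CPM at 6 h. The control, 3 h and 6 h libraries formed steps that did not overlap. The log2 fold change was -0.57 ± 0.10 (SE), adjusted p = 0.0215 at 3 h, and -0.81 ± 0.10 (SE), adjusted p = 0.00135 at 6 h, where it fell by 42.9%. Psma3 had 516 and 501 CPM in control, 390.4 and 348 CPM at 3 h, and 299 and 324 CPM at 6 h, with the same order of groups and no overlap. It fell by 27.4% at 3 h (log2 fold change -0.46 ± 0.11 (SE), adjusted p = 0.0468) and fell by 38.7% at 6 h (-0.71 ± 0.11 (SE), adjusted p = 0.00289). Psma1, the alpha gene with the lowest value at 6 h, had 266 and 295 CPM in control, 233 and 156 CPM at 3 h, and 159 and 158 CPM at 6 h. The 3 h libraries stood apart from each other, and the lower was at the 6 h level. At 6 h the log2 fold change was -0.82 ± 0.17 (SE), adjusted p = 0.0103. Psma7, Psma2 and Psma4 also fell at 6 h, by 0.78, 0.60 and 0.48 on the log2 scale. Psma6 missed the threshold (-0.33 ± 0.11 (SE), adjusted p = 0.0602). Psma8 encodes an alpha subunit of the germ-line proteasome and was scarcely expressed, with 2.37 and 1.83 CPM in control, 3.10 and 1.79 CPM at 3 h, and 3.14 and 3.53 CPM at 6 h. Its libraries overlapped between control and 3 h, both 6 h libraries were above the rest, and the value at 6 h (0.65 ± 0.43 (SE), adjusted p = 0.289) missed the threshold.

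The beta subunits of the constitutive core line its inner rings. All 7 genes fell at 6 h, with log2 fold changes from -0.67 to -0.41, and in all 7 both treated pairs of libraries lay below both controls. None passed at 3 h, where values ranged from -0.46 to -0.26. Psmb5, Psmb6 and Psmb7 encode the proteolytic subunits, named for chymotrypsin-like, caspase-like and trypsin-like cleavage. Psmb5 had 134 and 122 CPM in control, 102 and 96.4 CPM at 3 h, and 95.0 and 72.9 CPM at 6 h, stepping down from group to group without overlap. Psmb6 had 181 and 174 CPM in control, 147 and 140.1 CPM at 3 h, and 124 and 126 CPM at 6 h, also without overlap and with replicates close together. Psmb7 had 284 and 317 CPM in control, 245 and 234 CPM at 3 h, and 224 and 228 CPM at 6 h, where the 3 h and 6 h libraries were nearer to each other than to control. At 6 h their log2 fold changes were -0.61 ± 0.15 (SE), adjusted p = 0.0173 for Psmb5, -0.51 ± 0.11 (SE), adjusted p = 0.00963 for Psmb6, and -0.41 ± 0.11 (SE), adjusted p = 0.0211 for Psmb7. Psmb3, a non-catalytic subunit, had the lowest value of the class and the widest spread. It had 199 and 288 CPM in control, 158 and 195 CPM at 3 h, and 171 and 135 CPM at 6 h, so the control libraries lay farther apart than either treated pair. Its log2 fold change at 6 h was -0.67 ± 0.20 (SE), adjusted p = 0.0356.

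The promoters of Psmb5 and Psmb6 are shown because both hold a match to the antioxidant response element, the kind of site that NRF1 and NRF2 bind. Psmc6, Psmd9, Psmd12 and Psme4 also held a match, and of these Psmd9 (0.29) and Psmd12 (-0.32) missed the threshold at 6 h. With 50 bases after the start site included, 13.6% of member promoters and 12.4% of all promoters held one. The printed sequences are from RefSeq on GRCm38.p6 and cover the 250 bases before the start site, read 5′ to 3′ on the gene's strand. Psmb5 is chr14:54617996-54618245 on the minus strand and Psmb6 is chr11:70525107-70525356 on the plus strand. Capitals mark matches, on either strand, to TGACNNNGC (antioxidant response element), CCAAT (the NF-Y motif) or CCGGAAG (an ETS-family motif). Both capital stretches below are TGACNNNGC, beginning 47 bases before the start site in Psmb5 and 9 bases before it in Psmb6.
Psmb5: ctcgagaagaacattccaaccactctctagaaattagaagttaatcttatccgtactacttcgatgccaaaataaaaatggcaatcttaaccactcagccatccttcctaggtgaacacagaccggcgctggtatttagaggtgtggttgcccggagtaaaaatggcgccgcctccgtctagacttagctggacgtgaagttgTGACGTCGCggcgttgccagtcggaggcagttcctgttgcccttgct
Psmb6: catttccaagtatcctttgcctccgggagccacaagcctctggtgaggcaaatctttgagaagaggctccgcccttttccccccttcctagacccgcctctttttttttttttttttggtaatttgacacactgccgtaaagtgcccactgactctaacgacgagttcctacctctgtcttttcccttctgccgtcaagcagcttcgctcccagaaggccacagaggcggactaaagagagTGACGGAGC

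The inducible beta subunits replace the constitutive catalytic ones in immunoproteasomes, and none passed the test. Psmb8 had no more than 6 counts in any library and was not tested. Its highest level was 0.230 CPM, where 3 counts equal 0.099 to 0.367 CPM depending on the library. Psmb9 had 0.667 and 0.489 CPM in control, 0.775 and 0.867 CPM at 3 h, and 1.65 and 1.57 CPM at 6 h, and both 6 h libraries were above the other 4. It rested on 4 to 50 counts per library, and the log2 fold change at 6 h was 1.44 ± 0.61 (SE), adjusted p = 0.108. Psmb10 had 34.3 and 26.8 CPM in control, 23.1 and 24.0 CPM at 3 h, and 22.1 and 23.2 CPM at 6 h, below both controls in all 4 treated libraries. The difference at 6 h was a log2 fold change of -0.44 ± 0.17 (SE), adjusted p = 0.078. Psmb11, the thymus-specific subunit, is named because its controls stood apart, with 5.78 and 0.978 CPM in control, 4.07 and 6.07 CPM at 3 h, and 5.18 and 6.36 CPM at 6 h. Without control replicate 1 it was called higher at both times.

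The median of the cap was nearer to 0 than that of the core particle, -0.38 against -0.53 at 6 h and -0.28 against -0.33 at 3 h. The differences between divisions were not tested. Without control replicate 1 the order at 3 h was reversed, with -0.31 for the core particle and -0.36 for the cap. In every library of the 6 h group the core median was below the cap median, at -0.50 and -0.51 against -0.30 and -0.46 relative to the mean control level. At 3 h the core medians were -0.31 and -0.35 and the cap medians -0.26 and -0.30. The fits were equally precise in both divisions, with a median SE of 0.127. In the cap 8 of 17 genes fell at 6 h and none rose. In the core particle 13 of 18 fell and none rose.

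**Figure D3:**
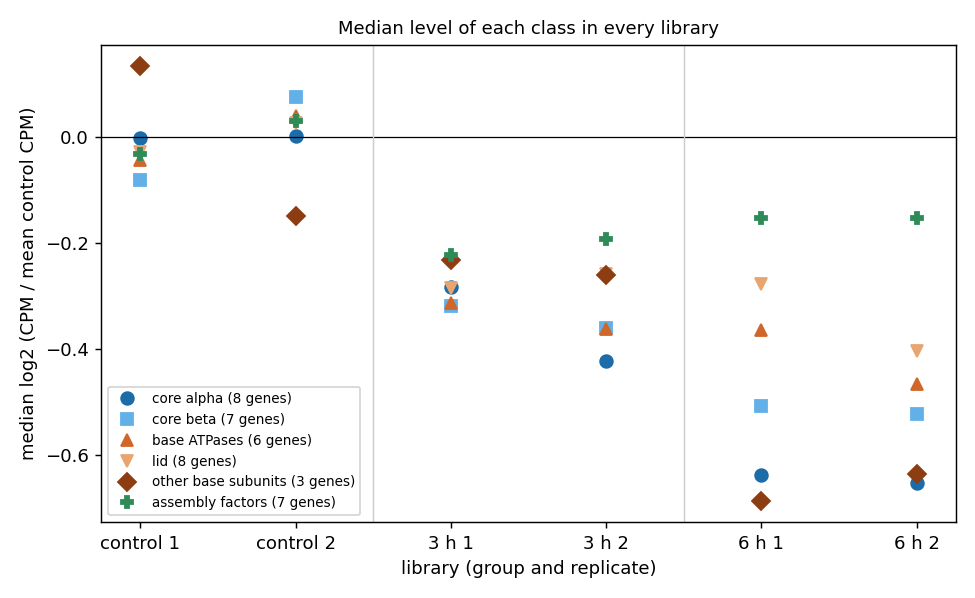
Median log2 ratio of CPM to the mean control CPM (vertical axis) for 6 classes of proteasome genes in each of the 6 libraries (horizontal axis). All 6 medians are below 0 in the 4 treated libraries. At 6 h the alpha class (-0.64 and -0.65) and the non-ATPase base subunits (-0.69 and -0.63) are lowest and the assembly factors (-0.15 in both) highest.

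The ATPases form the ring that unfolds substrates. All 6 had values below 0 at both times, and Psmc1, Psmc2 and Psmc6 fell at 6 h. Psmc1 had the lowest value of the class, with 105 and 114 CPM in control, 86.2 and 76.4 CPM at 3 h, and 77.9 and 76.6 CPM at 6 h. Its 3 h and 6 h libraries lay in one range below control, and the log2 fold change at 6 h was -0.51 ± 0.12 (SE), adjusted p = 0.0172. Psmc3 had the highest, with 167 and 147 CPM in control, 134 and 125 CPM at 3 h, and 130.02 and 127 CPM at 6 h, again with no overlap between control and treated libraries. The log2 fold change at 6 h was -0.29 ± 0.12 (SE), adjusted p = 0.0997, and it turned to 0.07 when libraries were scaled by their totals alone.

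Of the 3 other base subunits, Psmd2 and Psmd4 fell at 6 h. Psmd4, a ubiquitin receptor, had 98.8 and 81.3 CPM in control, 76.2 and 70.3 CPM at 3 h, and 55.97 and 50.2 CPM at 6 h, in steps that did not overlap. At 6 h it fell by 41.1% (log2 fold change -0.76 ± 0.14 (SE), adjusted p = 0.00639), after -0.30 ± 0.14 (SE), adjusted p = 0.235 at 3 h. Psmd2, a scaffold subunit that docks ubiquitin-binding proteins, had 177 and 209.9 CPM in control, 165 and 162 CPM at 3 h, and 118 and 125 CPM at 6 h. Its 6 h libraries were the lowest, and its log2 fold change at 6 h was -0.67 ± 0.12 (SE), adjusted p = 0.00548. Psmd1, the related scaffold subunit, had 521 and 412 CPM in control, 442 and 438 CPM at 3 h, and 380.4 and 413 CPM at 6 h. Control replicate 1 was highest and control replicate 2 lay among the treated libraries. The log2 fold change at 6 h was -0.23 ± 0.13 (SE), adjusted p = 0.198. On library totals alone it turned to 0.12.

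The promoter of Psmd4 is shown as that of the cap gene with the lowest value at 6 h among those the symbol rule matched. It is chr3:95042615-95042864 on the minus strand of GRCm38.p6 (RefSeq), printed as above. The first capital stretch is CCGGAAG, beginning 125 bases before the start site, and the second is CCAAT on the opposite strand, beginning 95 bases before it. Further CCAAT matches begin at base 2 (opposite strand) and base 21 after the start site and lie outside the stretch printed.
Psmd4: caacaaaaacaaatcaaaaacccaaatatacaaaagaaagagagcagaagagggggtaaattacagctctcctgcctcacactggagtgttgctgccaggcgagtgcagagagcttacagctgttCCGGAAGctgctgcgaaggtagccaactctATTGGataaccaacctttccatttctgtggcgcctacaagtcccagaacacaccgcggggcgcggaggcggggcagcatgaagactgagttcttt

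The lid removes ubiquitin chains before degradation. Of its 8 genes, Psmd14, Psmd7 and Psmd8 fell at 6 h, and the class median was -0.34. Psmd14, the deubiquitinating enzyme of the lid, had 363 and 412 CPM in control, 299 and 295 CPM at 3 h, and 265 and 272 CPM at 6 h. The treated libraries were all below control and the 6 h pair was lowest. The log2 fold change of Psmd14 was -0.38 ± 0.11 (SE), adjusted p = 0.0729 at 3 h and -0.53 ± 0.11 (SE), adjusted p = 0.00804 at 6 h. Psmd13, a structural lid subunit, gave the highest value of the cap, with 62.4 and 39.2 CPM in control, 66.1 and 45.4 CPM at 3 h, and 61.5 and 41.5 CPM at 6 h. Replicate 1 was above replicate 2 in every group, the groups overlapped fully, and its value was 0.01 ± 0.28 (SE), adjusted p = 0.979.

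**Figure D4:**
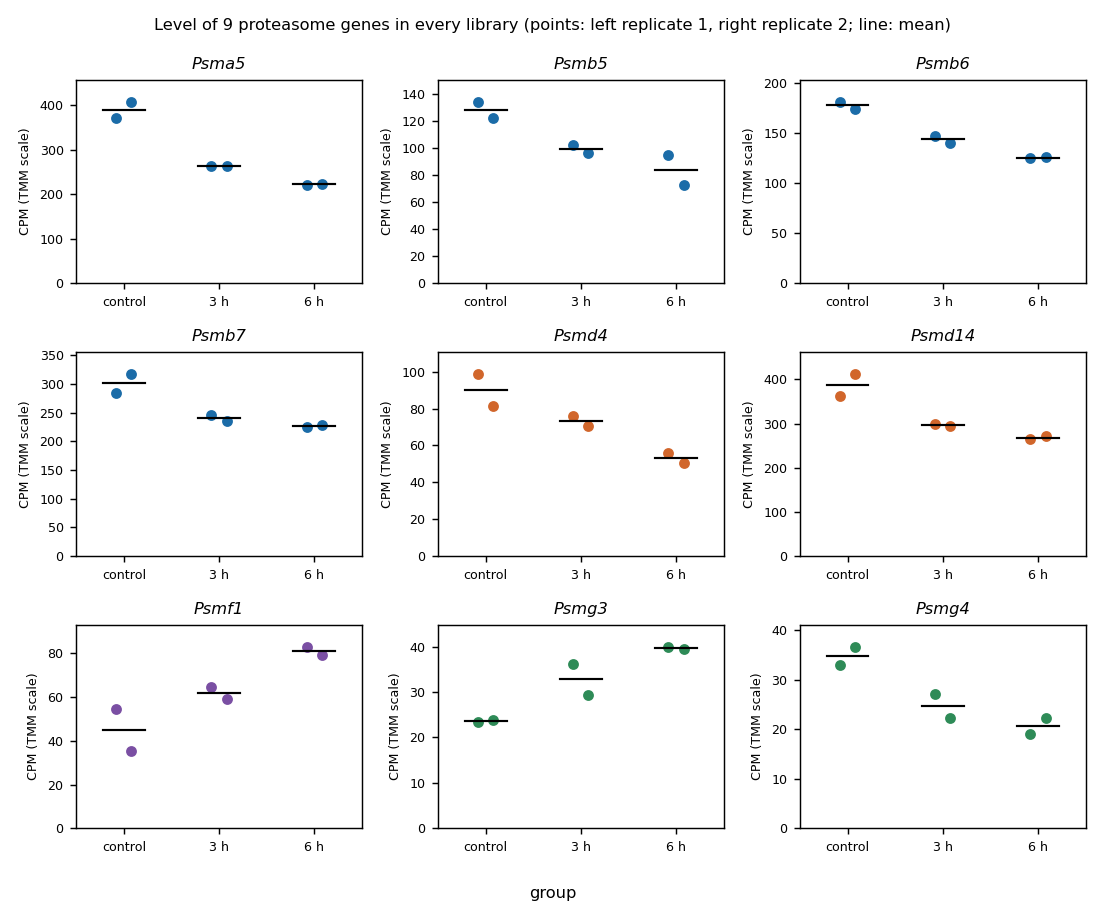
Level of 9 proteasome genes in TMM-scaled CPM (vertical axes, each from 0) in control, 3 h and 6 h libraries (horizontal axes); points are single libraries and lines are means. The core genes Psma5, Psmb5, Psmb6 and Psmb7 and the cap genes Psmd4 and Psmd14 step down, Psmg4 was lower in all 4 treated libraries, and Psmf1 and Psmg3 are highest at 6 h.

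Activators other than the cap open the barrel without ATP. Psme1 and Psme2 encode an interferon-inducible activator, Psme3 its nuclear relative and Psme4 a large single-chain activator. At 6 h Psme1, Psme3 and Psme4 fell and Psme2 missed the threshold (-0.51 ± 0.19 (SE), adjusted p = 0.0758). Psme1 had 42.2 and 43.5 CPM in control, 31.6 and 28.4 CPM at 3 h, and 26.3 and 24.1 CPM at 6 h, without overlap between groups, and a log2 fold change of -0.77 ± 0.14 (SE), adjusted p = 0.00605 at 6 h. Psme4 had 68.1 and 67.8 CPM in control, 57.6 and 60.3 CPM at 3 h, and 50.2 and 48.3 CPM at 6 h, also without overlap. At 6 h the log2 fold change was -0.46 ± 0.12 (SE), adjusted p = 0.0235.

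Psmf1 moved the other way. It had 54.2 and 35.1 CPM in control, 64.7 and 58.9 CPM at 3 h, and 82.8 and 78.8 CPM at 6 h. All 4 treated libraries were above both controls, and the 6 h pair was highest, while the controls stood far apart. The log2 fold change was 0.46 ± 0.20 (SE), adjusted p = 0.191 at 3 h and 0.85 ± 0.19 (SE), adjusted p = 0.0138 at 6 h, a 1.80-fold rise. The call at 6 h was made with all libraries and held on library totals alone, but not without either 6 h replicate.

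Assembly factors had the median closest to 0, -0.18 at 3 h and -0.21 at 6 h. The order of the times depends on the measure. Relative to the mean control level, the library medians were -0.22 and -0.19 at 3 h and -0.15 in both libraries at 6 h. At 6 h 1 of the 7 fell, Psmg4, and 1 rose, Psmg3, with the other 5 between -0.29 and 0.29. These calls were near the shares over all tested genes, 14.3% lower and 14.8% higher. The standard errors were larger than in the other divisions, with a median of 0.155 at 6 h. Psmg1 and Psmg2 encode a chaperone pair for alpha-ring formation, and Psmg3 and Psmg4 encode the partners of a further pair. These last partners moved in opposite directions. Psmg3 had 23.4 and 23.8 CPM in control, 36.2 and 29.4 CPM at 3 h, and 40.0 and 39.4 CPM at 6 h, with all 4 treated libraries above control and the 6 h pair highest. An exon of the gene model Gm26938 overlaps Psmg3 on the same strand, so reads of these models cannot be told apart. Psmg4 had 33.0 and 36.7 CPM in control, 27.1 and 22.2 CPM at 3 h, and 19.1 and 22.2 CPM at 6 h, with all 4 treated libraries below control. The log2 fold change at 6 h was 0.75 ± 0.15 (SE), adjusted p = 0.00916 for Psmg3, a 1.68-fold rise, and -0.75 ± 0.17 (SE), adjusted p = 0.0125 for Psmg4, which fell by 40.7%. Psmg3 kept its call on library totals alone, and Psmg4 did not. Psmg4 kept its call without 6 h replicate 2 but not without replicate 1, and Psmg3 lost it without either. Psmd5, Psmd9 and Psmd10 encode chaperones of the ATPase ring, and none passed.

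The promoters of the genes that rose are shown to set them beside those of Psmb5 and Psmb6. Psmf1 is chr2:151741311-151741560 and Psmg3 is chr5:139826895-139827144, both on the minus strand of GRCm38.p6 (RefSeq). Neither 250-base stretch holds any of the 3 motifs, so no letter is in capitals. A CCGGAAG match in Psmg3 begins at base 5 after the start site and lies outside the stretch printed.
Psmf1: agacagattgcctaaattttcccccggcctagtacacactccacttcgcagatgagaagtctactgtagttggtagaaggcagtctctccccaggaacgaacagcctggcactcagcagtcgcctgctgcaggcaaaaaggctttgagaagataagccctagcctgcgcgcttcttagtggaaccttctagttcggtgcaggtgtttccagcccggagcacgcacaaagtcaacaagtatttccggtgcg
Psmg3: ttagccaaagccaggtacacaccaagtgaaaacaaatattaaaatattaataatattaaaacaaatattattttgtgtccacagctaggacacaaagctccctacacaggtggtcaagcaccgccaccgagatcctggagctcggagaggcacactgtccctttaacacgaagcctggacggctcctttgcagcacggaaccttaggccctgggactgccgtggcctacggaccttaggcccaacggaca

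RefSeq promoters, from 250 bases before to 50 bases after the start site, were matched for 41 of the 49 genes and gave 44 promoters. TGACNNNGC was found, on either strand, in 13.6% of the 44 and in 12.4% of all 32851 promoters. CCAAT was found in 34.1% and 37.4%. CCGGAAG was found in 36.4% of the 44 and in 8.86% of all promoters. No motif contains another. The median log2 fold change at 6 h was -0.47 for members with TGACNNNGC and -0.44 for those without, -0.51 and -0.43 for CCAAT, and -0.35 and -0.48 for CCGGAAG. These matches describe letters in a window and not bound sites.

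Psmc3ip, matched by name only, had 25.1 and 19.6 CPM in control, 21.4 and 27.1 CPM at 3 h, and 23.9 and 22.0 CPM at 6 h. Control and treated libraries overlapped, and its log2 fold change at 6 h was 0.03 ± 0.19 (SE), adjusted p = 0.915. Without it, 25 of 47 tested genes fell and 2 rose, with a median of -0.44.

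Proteins that work with the proteasome gave mixed results. Of 16 tested associated factors, 4 fell at 6 h (Adrm1, Usp14, Ube3c and Txnl1) and 1 rose (Akirin2), with a median of -0.27, beside 14.3% lower and 14.8% higher over all genes. Adrm1, a ubiquitin receptor of the cap whose symbol the rule does not match, had 77.7 and 75.8 CPM in control, 59.6 and 61.1 CPM at 3 h, and 44.4 and 37.2 CPM at 6 h. Its libraries stepped down without overlap, and its log2 fold change at 6 h was -0.91 ± 0.14 (SE), adjusted p = 0.00288. Pomp, the maturation factor of the core particle, had 186 and 203 CPM in control, 155 and 177 CPM at 3 h, and 161 and 143 CPM at 6 h. Every treated library was below control, yet the value at 6 h, -0.36 ± 0.12 (SE), adjusted p = 0.0584, missed the threshold.

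Among 13 tested regulators of proteasome gene transcription, 4 fell at 6 h (Vcp, Sel1l, Mafg, Bach1), and Nfe2l2 rose. Over all tested genes, 14.3% were lower and 14.8% higher at 6 h, and 1.3% were lower and 3.6% higher at 3 h. At 3 h none fell and Mafk, a small MAF partner of NRF1 and NRF2, rose (1.45 ± 0.33 (SE), adjusted p = 0.0453). Nfe2l1 had 40.6 and 33.8 CPM in control, 39.7 and 35.5 CPM at 3 h, and 25.3 and 31.9 CPM at 6 h. Control and 3 h libraries overlapped, and both 6 h libraries were lowest (-0.38 ± 0.17 (SE), adjusted p = 0.127). Nfe2l2, which encodes NRF2, had 157 and 156 CPM in control, 174 and 166 CPM at 3 h, and 201 and 196 CPM at 6 h, with the 6 h pair above all others (0.34 ± 0.10 (SE), adjusted p = 0.0377). Ddi2, the protease that activates NRF1, reached at most 1.38 CPM and was not tested. Bach1, a repressor at antioxidant response elements, had 53.2 and 32.6 CPM in control, 24.9 and 25.8 CPM at 3 h, and 12.01 and 10.1 CPM at 6 h. Its 6 h libraries were far below the rest, with a log2 fold change of -1.96 ± 0.23 (SE), adjusted p = 0.0011 at 6 h.

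Other targets of NRF1 and NRF2, chosen from antioxidant metabolism, are set beside the proteasome genes. Of 10 tested, 9 fell at 6 h and none rose, with a median of -1.02, and Nqo1 and Gclm fell at 3 h. Slc7a11 is among the 9, but no treated library held more than 10 of its counts, while the controls held 22 and 12. It passed the low-count filter through the control libraries, which favours values below 0. Over all tested genes, 14.3% were lower and 14.8% higher at 6 h, and 1.3% were lower and 3.6% higher at 3 h. Srxn1, which repairs oxidised peroxiredoxins, had 33.6 and 39.2 CPM in control, 24.7 and 24.5 CPM at 3 h, and 12.3 and 12.1 CPM at 6 h, in steps without overlap, and a log2 fold change of -1.57 ± 0.16 (SE), adjusted p = 0.000485 at 6 h. Hmox1 was the exception, with 148 and 81.3 CPM in control, 146 and 72.9 CPM at 3 h, and 141 and 74.1 CPM at 6 h, where replicate 1 exceeded replicate 2 in each group. Of 9 tested genes of MHC class I antigen processing, which uses proteasome products, B2m and Calr fell at 6 h and none rose. That is 22.2% lower, beside the 14.3% over all tested genes. At 3 h Calr fell and Irf1, an interferon-response transcription factor, rose (1.03 ± 0.18 (SE), adjusted p = 0.0193). Calr, a chaperone of class I assembly, had 712 and 685 CPM in control, 469 and 466 CPM at 3 h, and 346 and 274 CPM at 6 h, without overlap between groups, and a log2 fold change of -1.17 ± 0.12 (SE), adjusted p = 0.000644 at 6 h. Values for Psmb8, Psmb9 and Psmb10 are given above.

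Some members share transcribed bases with another gene. In GENCODE release 21 for mouse, an exon on the same strand overlaps Psmb5 (Mir686), Psmd1 (Gm21972) and Psmg3 (Gm26938), and an exon on the opposite strand overlaps 12 members. The latter include Psma5, Psmb7 (Nek6), Psmb9 (Tap1), Psmc3 (Slc39a13), Psmd13 (Sirt3), Psme1 (Emc9) and Psmc3ip (Mlx). Use of strand in counting is not stated, so reads of such pairs cannot be told apart. The annotation also holds 4 pseudogenes named after members. Which part of each transcript the reads cover is not stated either, so levels were not compared between genes.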

How the data were processed

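RNA was measured in E14 mouse embryonic stem cells, with 2 libraries in each of 3 groups taken from the sample titles. The authors deposited a file of raw whole-number read counts for each library. Poly(A) RNA, per the labels' protocols, was extracted with TRIzol, barcoded and sequenced as a pool, and mm10 is the build in the submitters' processing notes. The aligner, counter, annotation, strandedness and any molecular identifiers are not given in the sources used here, so a floor of 3 counts covers counting error only. The series title says bulk while its design text mentions single cells; each file holds 1 value per gene and was treated as bulk. From these counts, genes passing filterByExpr (minimum count 10, minimum total 15; 12755 genes) were scaled by TMM and fitted with edgeR 4.0.16 (R 4.3.3; glmQLFit and glmQLFTest, 1 mean per group over all 6 libraries, 3 residual degrees of freedom). P-values are two-sided and adjusted by Benjamini-Hochberg over all tested genes, with a threshold of 0.05. SE is the log2 fold change divided by the square root of F.

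Alternatives were other scalings and filters, DESeq2 1.42.0, limma-voom and limma-trend (limma 3.58.1; the latter added after the data were seen), a replicate block, robust fitting, 4 libraries only, thinning and leaving out each library. Members and lists were chosen with earlier results of these data known. Named were the catalytic, inducible and other preset members, the highest and lowest member of each class at 6 h, those called at 3 h, and preset or lowest-p genes of related lists; other names followed from their values. 1 of the related lists is not reported here. Gene positions are from GENCODE M21. In replicate comparisons over genes with at least 20 counts, chi-square per degree of freedom was 18.7 to 27.8, so no library was treated as a repeat of another.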

Additional observations from a re-analysis of the deposited data

Results flagged for a closer look

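By edgeR's quasi-likelihood test no proteasome gene was called between the treatment times. Among the related genes given with library values above, Srxn1 and Bach1 were called by that test. For Srxn1 the log2 fold change between these times was -1.01 (adjusted p = 0.0208). For Bach1 it was -1.20 (adjusted p = 0.045). In both genes each 6 h library was below each 3 h library. Of the related lists described above, the only other gene called was Gclc (-0.69, adjusted p = 0.0326). Among the cell markers Sox2, Zfp42, Fgf4, Sox7 and Tubb3 were called lower, Tubb3 at -1.47 (adjusted p = 0.00101).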

How the results depend on the processing

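With library totals alone, members lower at 3 h and 6 h numbered 0 and 3, members higher at 3 h numbered 1, genes called at 3 h numbered 1373, and the core, cap and assembly medians were -0.11, -0.0548 and 0.0484 at 3 h and -0.18, -0.0259 and 0.14 at 6 h. On that scale Psme4 at 3 h (0.0214), Psmc3 (0.0708) and Psmd1 (0.12) at 6 h, and Psmb7 (0.0453) and Psmc1 (0.0567) at 6 h against 3 h changed sign. Core medians moved to -0.36 at 3 h and -0.55 at 6 h with RLE factors and with DESeq2, and to -0.51 at 6 h with upper-quartile factors. The assembly median at 6 h moved to -0.18 with a minimum count of 50 and to -0.12 after thinning. No filter on low counts gave 8 members lower at 3 h, 1 lower at 6 h against 3 h, and 1816 and 1063 genes called in those comparisons. DESeq2 gave 11, 1, 1447 and 688 in the same order. limma-voom called 508 genes at 6 h against 3 h. With only the 4 libraries compared, 0 members were lower at 3 h, with 218 genes called at 3 h and 563 at 6 h against 3 h. At an adjusted p under 0.01, 0 members were lower at 3 h and 12 at 6 h, 1 was higher at 6 h, with 133 genes called at 3 h, 1572 at 6 h and 43 at 6 h against 3 h.

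Psmd13 at 6 h had values below 0 with RLE factors (-0.0039), DESeq2 (-2e-04), limma-voom (-0.0085) and thinning (-0.0053).

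Leaving out each library in turn gave 0 to 4 members lower and 0 to 2 higher at 3 h, and 4 to 25 lower and 0 to 3 higher at 6 h. Between 6 h and 3 h, 0 were lower in each such fit. Genes called numbered 108 to 1033 at 3 h, 1312 to 3578 at 6 h and 14 to 595 at 6 h against 3 h. Core, cap and assembly medians ranged from -0.35 to -0.27, -0.36 to -0.26 and -0.23 to -0.15 at 3 h. At 6 h they ranged from -0.53 to -0.49, -0.47 to -0.30 and -0.21 to -0.15. A lone library was assumed to vary like the other groups. At 6 h Psmc3ip ranged from -0.125 (without control replicate 2) to 0.2315 and Psmd13 from -0.3021 (without 6 h replicate 1) to 0.3912, and at 6 h against 3 h Psmc1 ranged from -0.1588 to 0.0186 and Psma1 from -0.5509 to 0.0274, both highest without 3 h replicate 1.

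Over all tested genes, deviations of replicate 1 from group means correlated at 0.09, -0.02 and 0.02 between groups. Such values cannot decide whether replicate numbers mark a pairing, which the labels do not state. In single genes such as Psmd13 and Hmox1, replicate 1 was above replicate 2 in every group. With the replicate block, 1 member was lower at 3 h and 22 at 6 h, 2 were higher at 6 h, and 126 genes, 0 of them members, were called at 6 h against 3 h. A difference in Psmb8 was not detectable at this depth.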
